A study of Mus musculus with 24 samples.

Results

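The MARK, NUAK and BRSK kinases were taken by gene symbol, as the 8 genes Mark1, Mark2, Mark3, Mark4, Nuak1, Nuak2, Brsk1 and Brsk2 among the 55471 genes of the count tables. They were followed through 24 RNA-seq libraries of 3T3 mouse embryonic fibroblasts (MEFs, an immortalized fibroblast line) in 8 groups of 3. Wild-type (WT) MEFs, LKB1 KO MEFs (Lkb1-/-) and the LKB1/CRTC2 KO lines A1 and A2 (Lkb1-/-/Crtc2-/-) were each sequenced untreated and after 6 hours of IL-1β, an inflammatory cytokine. Each of A1 and A2 grew from 1 cell after CRISPR editing of the first exon of Crtc2, so genotype and clone cannot be told apart within them. The WT and Lkb1-/- lines were established earlier as separate lines, so genotype and line cannot be told apart either. The labels name the 3 libraries of a group only as replicates, and p-values therefore measure the spread between those libraries.

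MARK, NUAK and BRSK kinases are relatives of AMPK, the energy sensor of the cell. LKB1, the product of Stk11, switches them on by phosphorylating a threonine in the activation loop (T-loop) of the kinase domain, so the loss of LKB1 acts first on their activity, which RNA levels do not show. MARK kinases phosphorylate microtubule-associated proteins and polarity proteins, NUAK kinases act on the myosin phosphatase complex and on cell adhesion, and BRSK kinases are best known from the polarity of neurons. CRTC2 is a coactivator of CREB that the SIK branch of the same kinase family holds in the cytoplasm. The comparisons ask whether the RNA of these kinases differs without LKB1, whether the additional loss of CRTC2 moves it, and whether IL-1β does.

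The T-loop is shown first, because it is the site that makes these genes one group of LKB1 targets. Each sequence holds 45 bases of coding RNA from the GENCODE M21 transcripts (GRCm38), with the codon of the LKB1-target threonine in capitals, 5 codons before it and 9 after it. Each of the 8 genes gave 1 form of it.
Mark1: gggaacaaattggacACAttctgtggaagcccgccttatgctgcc
Mark2: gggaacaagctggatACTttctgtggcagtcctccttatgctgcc
Mark3: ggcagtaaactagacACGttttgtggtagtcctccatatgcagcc
Mark4: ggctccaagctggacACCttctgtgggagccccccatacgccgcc
Nuak1: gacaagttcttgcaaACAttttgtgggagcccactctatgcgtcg
Nuak2: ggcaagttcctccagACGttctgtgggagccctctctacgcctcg
Brsk1: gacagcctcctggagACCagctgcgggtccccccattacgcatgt
Brsk2: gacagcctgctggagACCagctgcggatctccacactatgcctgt

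Over these 45 bases, the 8 pairs within a subfamily were identical at 73.3% to 84.4% of positions, with a median of 75.6%, and the 20 pairs from different subfamilies at 48.9% to 66.7%, with a median of 56.7%. Mark1 and Mark2 shared 38 of 45 bases, Nuak1 and Nuak2 36, and Brsk1 and Brsk2 38. All 4 threonine codons occur among the 8 genes.

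The genes lie apart in the genome (GRCm38). Mark1 spans chr1:184896789-184999570 on the minus strand and Nuak2 chr1:132316126-132333488 on the plus strand. Mark2 spans chr19:7275396-7341860 (minus), Mark3 chr12:111574523-111656221 (plus) and Nuak1 chr10:84370905-84440597 (minus). Mark4 spans chr7:19424775-19458821 (minus), Brsk1 chr7:4690604-4715997 (plus) and Brsk2 chr7:141949751-142004247 (plus). Brsk1 overlaps Tmem150b on the opposite strand, and its counts were taken from the strand-specific column, where the opposite setting held at most 1.47% of its pairs. The promoters of 6 members, 250 bases before to 50 after a start, (all but Mark4 and Nuak2) were searched on both strands in RefSeq's table (GRCm38.p6) for TGACGTCA, the cyclic AMP response element that CREB binds, and for its shorter form TGACG, which the full element contains. TGACGTCA was in none of them and in 1.79% of all 32851 promoters. TGACG was in a promoter of Mark2, in aaccgaaaacTGACGgaaagaaac, and of Mark3, read on the opposite strand in gcggccgtagCGTCActtccggca, with the match in capitals, and in 20.8% of all promoters. A match or its absence describes these letters in this window only.

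The libraries held 38842901 to 48594394 counts on genes (median 42431965). Stk11 was at 84.6 to 87.9 CPM (counts scaled to library size with TMM) in the untreated WT libraries and at 16.3 to 18.7 in the untreated Lkb1-/- libraries, and its remaining reads can come from outside the deleted part. Crtc2 was at 56.5 to 61.2 CPM in untreated WT, 79.1 to 82.3 in untreated Lkb1-/- MEFs, 41.1 to 45.2 in A1 and 48.9 to 50.6 in A2, so its RNA was still present in both clones. Of the fibroblast markers, Col1a1, Col1a2, Pdgfrb, Vim and Fn1 were present in every library, whereas Thy1 reached at most 0.0623 CPM. Col1a2 was at 447.2 to 912.3 CPM in WT and 28.5 to 279.9 without LKB1, and Fn1 at 598.6 to 778.6 and 1430.7 to 2853.7 CPM. The ranges of Col1a1, Pdgfrb and Vim overlapped. Epithelial markers summed to at most 0.447 CPM, immune markers to 2.44 to 6.82 CPM (nearly all Cd68) and endothelial markers, mostly Kdr, to 0.370 to 0.595 CPM in WT libraries and 2.06 to 3.801 CPM in those without LKB1. A list of 5 neuronal markers summed to 0.0921 to 0.646 CPM in the 6 WT libraries and to 120.6 to 220.0 CPM in the 18 libraries without LKB1, most of it Stmn2 (106.8 to 210.1 CPM without LKB1, at most 0.0776 in WT). Syn1, at 0.0230 to 0.543 CPM in WT and 1.20 to 10.3 without LKB1, and Tubb3, at 0.0233 to 0.0987 and 1.24 to 11.05 CPM, were also apart, whereas Snap25 was at or below 0.0245 and Rbfox3 at or below 0.0494 in every library. In bulk RNA, fewer cells of a type and less RNA per cell cannot be told apart.

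Compared per length, as CPM per kilobase of exon (RPKM), Mark3 and Mark2 led the family in WT MEFs. In untreated WT MEFs the mean level was 12.4 RPKM for Mark3, 11.8 for Mark2, 6.82 for Mark4, 6.30 for Nuak1, 5.59 for Nuak2 and 1.74 for Brsk1, and Mark1 was at 0. In untreated Lkb1-/- MEFs Brsk1 came after Mark4, at 4.93 ± 0.301 RPKM (SD, n = 3), above Nuak1 at 2.46 ± 0.184 and Nuak2 at 1.92 ± 0.0789. The sum over the 8 genes was 44.7 ± 1.78 RPKM in untreated WT, 37.0 ± 1.55 in Lkb1-/-, 39.4 ± 1.53 in A1 and 33.5 ± 3.07 in A2 (SD, n = 3 each). The WT range, 42.8 to 46.3 RPKM, lay above all 9 untreated libraries without LKB1. After IL-1β the sums were 42.2 ± 0.889, 35.5 ± 1.84, 35.0 ± 1.47 and 31.9 ± 1.21 RPKM in the same order. Brsk1 made up 3.91% of the sum in untreated WT and 13.3% in untreated Lkb1-/- MEFs, while Nuak1 went from 14.1% to 6.64% and Nuak2 from 12.5% to 5.19%. Unstranded counts, which drop pairs that lie on 2 overlapping genes, gave Brsk1 shares of 2.11% and 7.41%.

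**Figure D1:**
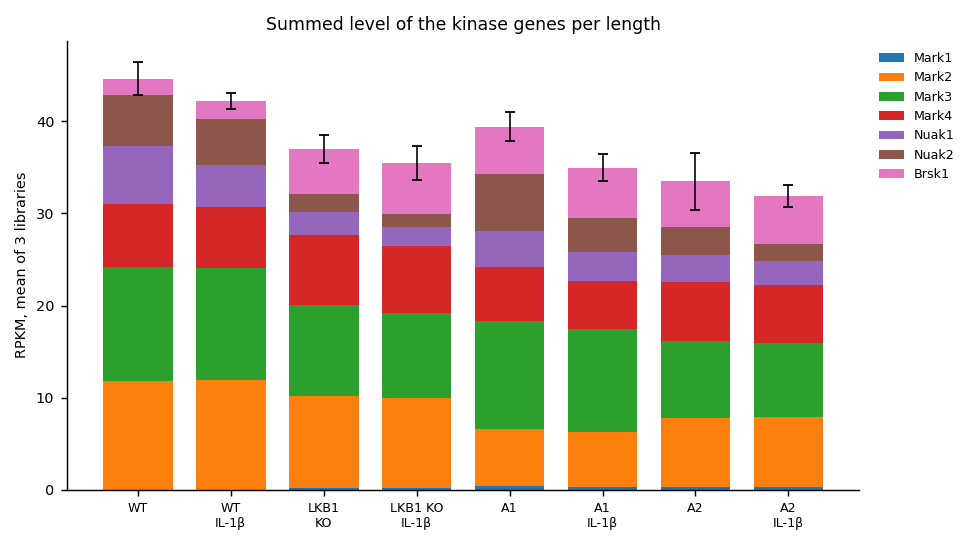
Stacked bars give the mean RPKM of each kinase gene over 3 libraries in each of the 8 groups, and black bars the SD of the sum; Brsk2, near 0, is not drawn. The WT bars are the tallest, at 44.7 and 42.2 RPKM, and the pink Brsk1 segment is thinnest there.

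Brsk2 was close to absent. It had 9 counts in all 24 libraries together, with 18 libraries at 0 and at most 3 counts in 1 library, and a count of 0 allows up to 3 counts, or 0.0604 to 0.0782 CPM. It did not pass the filter on low counts and was not tested, so 7 of the 8 genes were tested among 17522. Mark1, with at most 1 count in a WT library, passed the filter only through the groups without LKB1. A call of Mark1 against WT could then only be higher, so it lends no support of its own in the counts of called genes below.

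In untreated Lkb1-/- MEFs, Nuak1 and Nuak2 were lower than in WT, Brsk1 and Mark1 were higher, and Mark2 and Mark3 were slightly lower. Among the 7 genes tested in untreated cells, 6 differed between Lkb1-/- and WT MEFs at an edgeR FDR under 0.05, 2 higher and 4 lower. Of all genes tested 55.9% were called in this comparison, so a count of 6 in 7 is to be read against a background in which most genes differ between these lines. The median log2 fold change of the 7 genes was -0.24, with Mark1 fitted or at its lower bound, and that of all genes 0.04.

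Nuak2, whose product acts on the myosin phosphatase complex and on cell contractility, was at 20.6, 23.6 and 21.5 CPM in untreated WT MEFs and had 7.83, 7.52 and 7.21 CPM in the Lkb1-/- libraries. The groups did not overlap, and the level fell 2.91-fold (log2 fold change -1.54 ± 0.13 SE, edgeR FDR = 1.6e-09). Nuak1, its closest relative, was at 29.6, 41.3 and 35.5 CPM in WT and at 13.1, 13.5 and 15.02 CPM in Lkb1-/- libraries. All 3 Lkb1-/- libraries lay below the lowest WT library, and the level fell 2.56-fold (log2 fold change -1.36 ± 0.16 SE, edgeR FDR = 3.0e-07).

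Brsk1, a kinase of neuronal polarity, went the other way. Untreated WT libraries had 7.48, 7.28 and 6.70 CPM, and Lkb1-/- libraries 19.6, 19.4 and 21.6 CPM. The groups lay far apart, and the level rose 2.82-fold (log2 fold change 1.496 ± 0.10 SE, edgeR FDR = 2.2e-11). Mark1 had 0 counts in each of the 3 untreated WT libraries and was at 0.996, 0.626 and 1.19 CPM in Lkb1-/- libraries, with 27 to 50 counts. Against a floor of 3 counts per WT library it was at least 13.1-fold higher. The direction of its call was fixed by the filter, so its FDR is not given as support. Brsk1 and Mark1 are both expressed in neurons, and the sum of the 5 neuronal markers separated WT from the other libraries as given above; the part of these markers in the 2 increases was not tested.

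Mark2 and Mark3, which phosphorylate microtubule-associated proteins, changed little but evenly. Mark3 was at 121.0, 121.5 and 118.3 CPM in untreated WT and at 96.5, 95.7 and 96.0 CPM in Lkb1-/- libraries, 1.25-fold lower (log2 fold change -0.32 ± 0.04 SE, edgeR FDR = 1.6e-06). Mark2 was at 93.7, 92.8 and 94.6 CPM in WT and at 76.1, 79.0 and 82.6 CPM in Lkb1-/- libraries, 1.18-fold lower (log2 fold change -0.24 ± 0.06 SE, edgeR FDR = 0.0032). The groups did not overlap for either gene, yet both changes were smaller than the median absolute log2 fold change of all genes, 0.47. Mark4 was at 28.8, 32.6 and 34.1 CPM in WT and at 33.0, 34.2 and 39.3 CPM in Lkb1-/- libraries, with overlapping groups, and did not pass (log2 fold change 0.16 ± 0.12 SE, edgeR FDR = 0.27). It was called higher under upper quartile scaling (edgeR FDR = 0.032) and with the replicate block (edgeR FDR = 0.017).

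**Figure D2:**
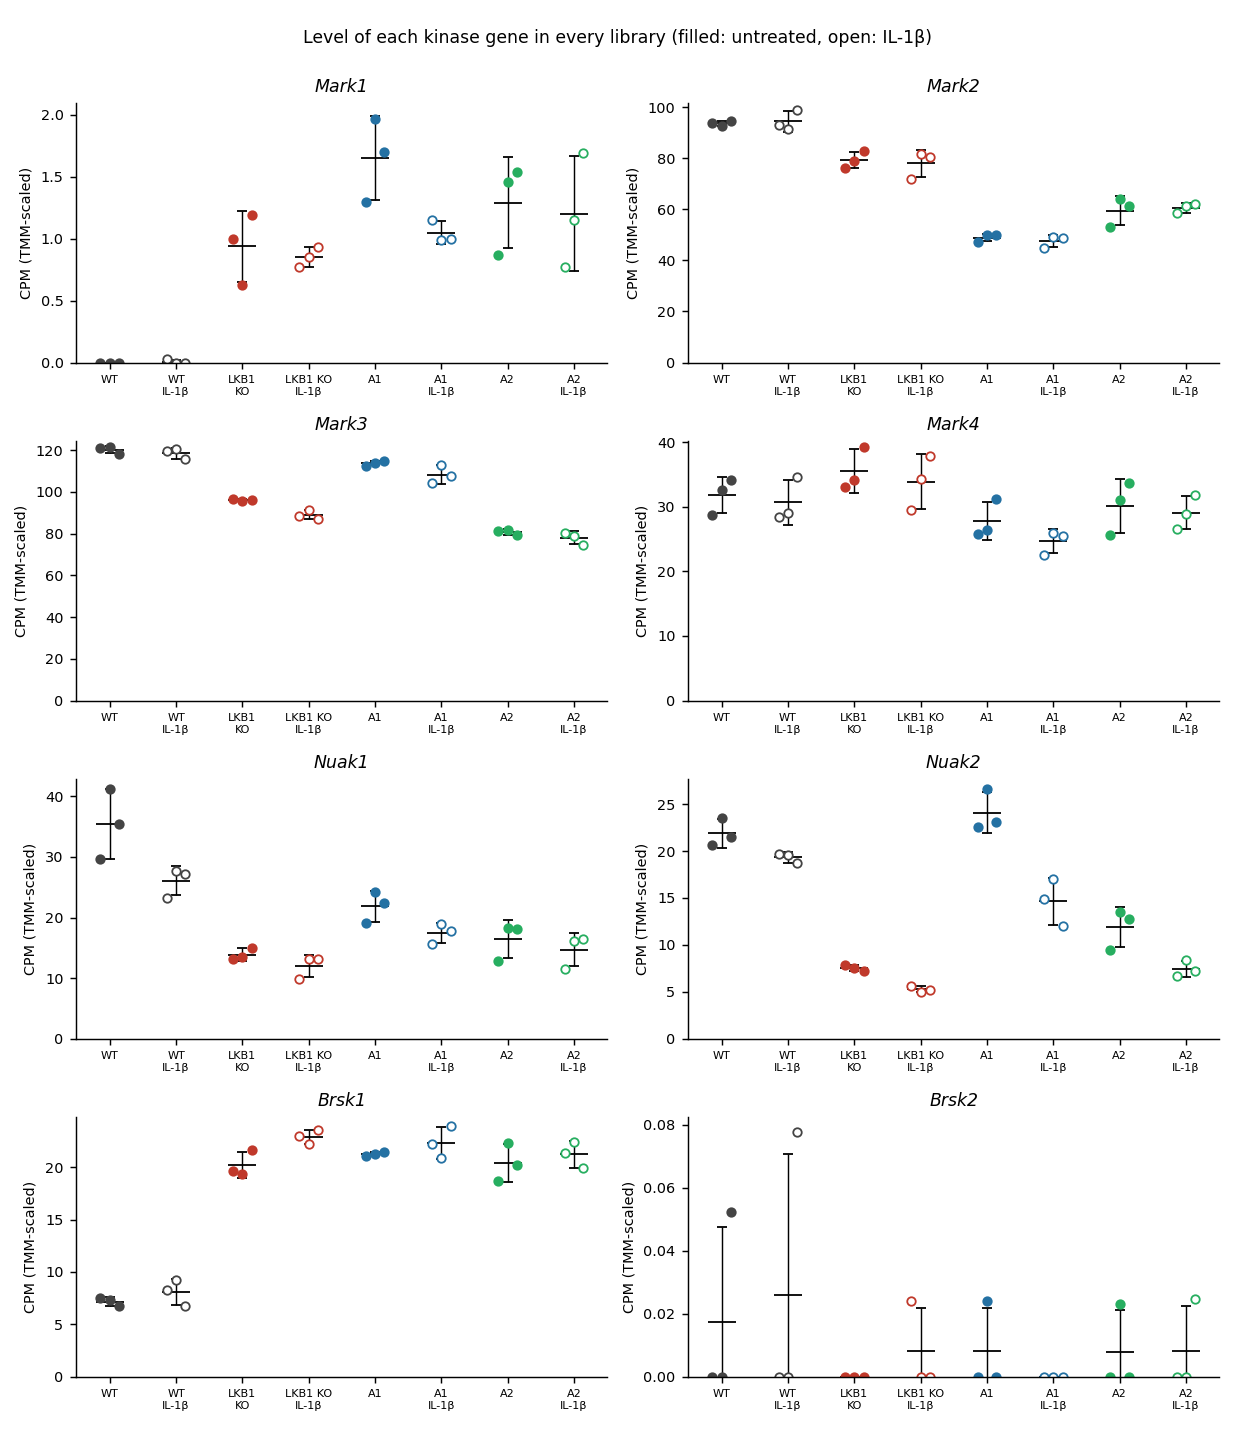
Points give the TMM-scaled CPM of each gene in every library, filled for untreated and open for IL-1β, with the mean as a horizontal bar and the SD over 3 libraries as an error bar; each panel has its own axis from 0. Brsk1 and Mark1 are low in WT alone, Nuak1 and Nuak2 are high in untreated WT, and Nuak2 is as high in untreated A1, at 22.6 to 26.6 CPM.

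After IL-1β the same contrast was tested in separate libraries. Of the 7 genes, 6 passed between Lkb1-/- and WT MEFs, beside 57.4% of all genes, again Brsk1 and Mark1 higher and Mark2, Mark3, Nuak1 and Nuak2 lower. Nuak2 was at 19.7, 19.6 and 18.7 CPM in WT and at 5.61, 4.99 and 5.23 CPM in Lkb1-/- libraries, a 3.66-fold lower level (log2 fold change -1.87 ± 0.13 SE, edgeR FDR = 1.0e-10). Nuak1 was at 23.3, 27.7 and 27.2 CPM in WT and at 9.81, 13.1 and 13.1 CPM in Lkb1-/- libraries (log2 fold change -1.12 ± 0.16 SE, edgeR FDR = 4.2e-06). Neither gene had overlapping groups. Brsk1 was at 8.27, 9.20 and 6.75 CPM in WT and at 22.96, 22.2 and 23.6 CPM in Lkb1-/- libraries (log2 fold change 1.503 ± 0.10 SE, edgeR FDR = 1.9e-11). Mark1 had 1 count in the 3 WT libraries together and 112 in the Lkb1-/- libraries, a depth-scaled ratio of 104 with an exact 95% interval of 18.3 to 4141 that covers counting error only. With 1 count in WT this interval on the summed counts takes the place of the bound used for untreated cells, which set each WT library at 3 counts, so the 2 values are not comparable. Mark2 lay at -0.28 ± 0.06 SE (edgeR FDR = 0.001), and Mark3 lay at -0.41 ± 0.04 SE (edgeR FDR = 4.7e-08). Mark4, at 0.14 ± 0.12 SE, did not pass (edgeR FDR = 0.31; 0.028 under upper quartile scaling and 0.031 with the replicate block).

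Nuak1 shares chromosome 10 with Stk11, whose start lies 4.32 Mb from that of Nuak1. The 814 genes tested on chromosome 10 had a median log2 fold change of -0.44 between untreated Lkb1-/- and WT MEFs, the lowest of the 20 chromosomes tested, against 0.06 over all other chromosomes. Within 0.5 Mb of Nuak1, 7 other genes had a median of -0.26, with 4 called lower and 1 higher. The nearest tested gene on one side, Gm5425, was at -0.70 (edgeR FDR = 0.0073), and on the other side Gm47962 was at 0.05 (edgeR FDR = 0.92). Nuak1, at -1.36, lay below all 7 of them and below all but 9 of the 180 genes within 5 Mb (5%). Of the other genes of chromosome 10, 7.63% lay below Nuak1, and of those of all other chromosomes 5.03%. The part of the chromosome-wide shift in the level of Nuak1 was not tested. Chromosome 1, with Mark1 and Nuak2, had a median of -0.29, and chromosome 7, with Mark4 and Brsk1, had -0.18.

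**Figure D3:**
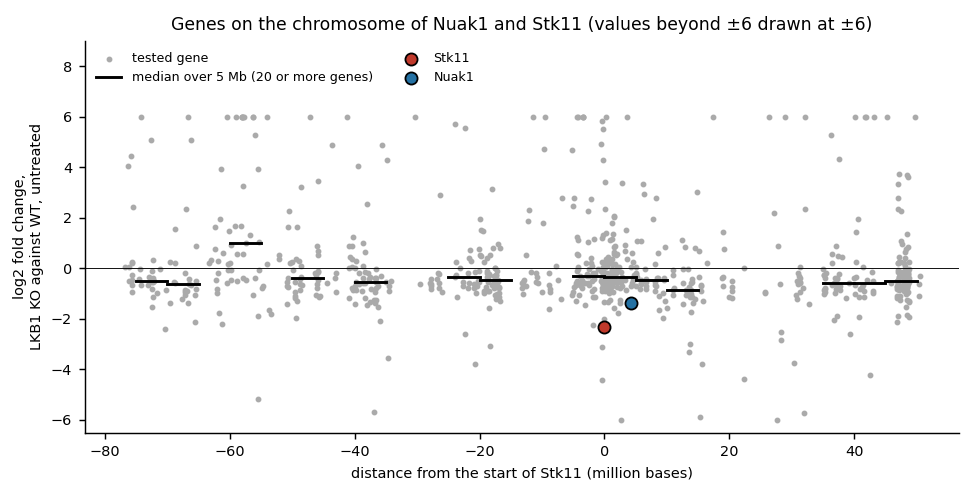
Each grey point is a tested gene of the chromosome that carries Nuak1 and Stk11, by its distance from the start of Stk11 in Mb and its log2 fold change between untreated Lkb1-/- and WT MEFs; black lines are medians over 5 Mb with 20 or more genes. Most medians lie below 0, and Nuak1 (blue, -1.36) lies below those around it.

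The clones without CRTC2 were compared with Lkb1-/- MEFs, with which they share the LKB1 KO label. Nuak2 was higher in both clones and Mark2 lower in both, whereas Mark3 was higher in A1 and lower in A2. In untreated A1, 6 of 7 genes were called against Lkb1-/- MEFs, 4 higher (Mark1, Mark3, Nuak1 and Nuak2) and 2 lower (Mark2 and Mark4), beside 35.3% of all genes. In untreated A2, 3 of 7 were called, Nuak2 higher and Mark2 and Mark3 lower, beside 32.3% of all genes. With the replicate block 5 were called in A2, Nuak1 as higher (edgeR FDR = 0.023) and Mark4 as lower (edgeR FDR = 0.0011) in addition. Over all genes the block raised the calls there too, from 5655 to 8042 of 17522. The median log2 fold change of the 7 genes was 0.24 in A1 and 0.01 in A2, beside 0.02 over all genes in each. Both comparisons use the same 3 Lkb1-/- libraries, so their values are given side by side and not as independent results.

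Nuak2 was at 22.6, 26.6 and 23.1 CPM in untreated A1 and at 9.47, 13.5 and 12.7 CPM in untreated A2, beside 7.21 to 7.83 CPM in Lkb1-/- MEFs. All 6 clone libraries lay above the 3 Lkb1-/- libraries, and no A2 library reached the lowest A1 library. The rise was 3.20-fold in A1 (log2 fold change 1.68 ± 0.13 SE, edgeR FDR = 5.2e-09) and 1.58-fold in A2 (0.66 ± 0.13 SE, edgeR FDR = 0.00047). The clones themselves differed, with Nuak2 lower in A2 than in A1 (log2 fold change -1.02 ± 0.13 SE, edgeR FDR = 3.1e-06). Nuak1 was at 19.0, 24.1 and 22.4 CPM in A1 and at 12.8, 18.3 and 18.1 CPM in A2, beside 13.1 to 15.02 CPM in Lkb1-/- MEFs. A1 lay wholly above Lkb1-/- MEFs (log2 fold change 0.66 ± 0.16 SE, edgeR FDR = 0.0028), and A2 overlapped with them (0.24 ± 0.16 SE, edgeR FDR = 0.28, and 0.048 without replicate 1 of untreated A2). Genes within 0.5 Mb of Nuak1 had a median of 0.38 in A1 and 0.37 in A2 in these comparisons, and the part of this shift was not tested.

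Mark2 was at 47.2, 49.8 and 49.8 CPM in untreated A1 and at 53.2, 64.0 and 61.1 CPM in untreated A2, beside 76.1 to 82.6 CPM in Lkb1-/- MEFs. Neither clone overlapped with Lkb1-/- MEFs, and the log2 fold change was -0.70 ± 0.07 SE in A1 (edgeR FDR = 7.4e-08) and -0.42 ± 0.07 SE in A2 (edgeR FDR = 5.1e-05). Mark3 was at 112.6, 114.1 and 114.9 CPM in A1 and at 81.1, 81.8 and 79.4 CPM in A2, beside 95.7 to 96.5 CPM in Lkb1-/- MEFs. The clones thus lay on opposite sides of Lkb1-/- MEFs, at 0.24 ± 0.04 SE in A1 (edgeR FDR = 0.00014) and -0.25 ± 0.04 SE in A2 (edgeR FDR = 0.00015), and differed from each other by -0.50 ± 0.04 SE (A2 against A1, edgeR FDR = 3.7e-08).

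Brsk1 was at 21.1, 21.2 and 21.4 CPM in untreated A1 and at 18.6, 22.3 and 20.2 CPM in untreated A2, which overlapped with the 19.4 to 21.6 CPM of Lkb1-/- MEFs. The log2 fold change was 0.07 ± 0.09 SE in A1 (edgeR FDR = 0.59) and 0.01 ± 0.09 SE in A2 (edgeR FDR = 0.94), with intervals of 2 SE from -0.11 to 0.26 and from -0.17 to 0.20, so a change as large as the one between Lkb1-/- and WT MEFs lies outside both. Mark1 was at 1.29, 1.97 and 1.70 CPM in A1 (log2 fold change 0.82 ± 0.31 SE, edgeR FDR = 0.046) and at 0.866, 1.46 and 1.54 CPM in A2 (0.45 ± 0.31 SE, edgeR FDR = 0.29). Its call in A1 was lost without replicate 1 or 2 of untreated Lkb1-/- MEFs or replicate 2 or 3 of untreated A1 (edgeR FDR = 0.069 to 0.20) and when low counts were not filtered (edgeR FDR = 0.064). Mark4 was at 25.8, 26.4 and 31.1 CPM in A1 (log2 fold change -0.35 ± 0.12 SE, edgeR FDR = 0.023) and at 25.6, 31.1 and 33.7 CPM in A2 (-0.24 ± 0.12 SE, edgeR FDR = 0.13). Its call in A1 was lost without replicate 1 or 2 of untreated A1 or replicate 3 of untreated Lkb1-/- MEFs (edgeR FDR = 0.086 to 0.11).

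**Figure D4:**
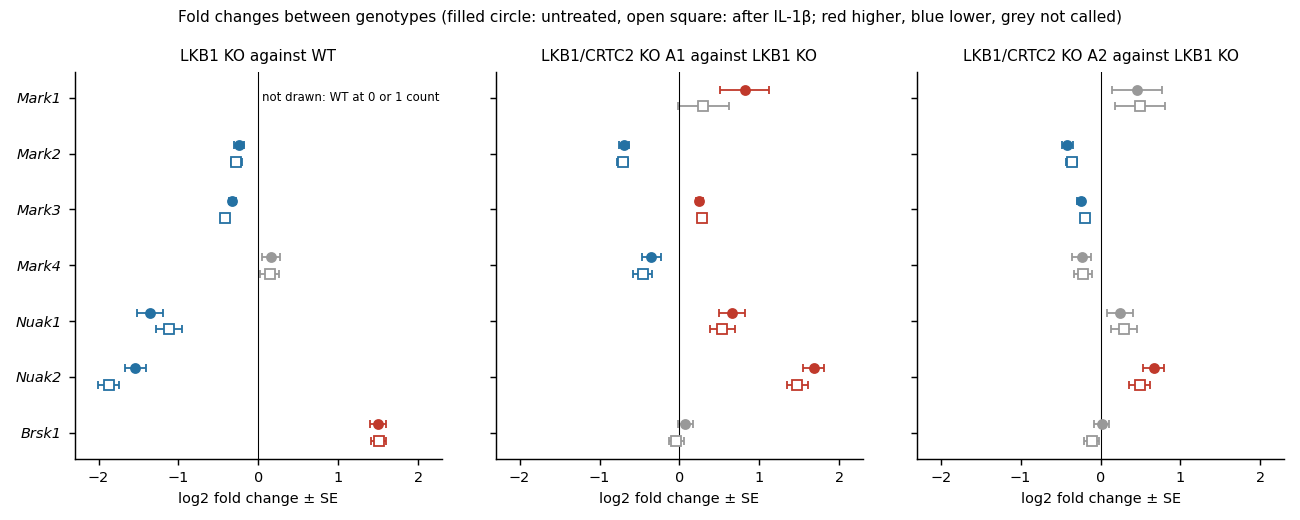
Points give the log2 fold change with its SE for 7 genes in 3 comparisons of genotypes, as filled circles for untreated cells and open squares after IL-1β, in red where called higher, blue where called lower and grey where not called. Nuak2 is lower in Lkb1-/- MEFs than in WT (-1.54 and -1.87) and higher in both clones than in Lkb1-/- MEFs, whereas Brsk1 lies near 0 in both clones.

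After IL-1β, 5 of 7 genes were called in A1 against Lkb1-/- MEFs, beside 36.7% of all genes, with Mark3 (log2 fold change 0.28), Nuak1 and Nuak2 higher and Mark2 (-0.71) and Mark4 (-0.46) lower. In A2 3 were called, beside 32.8% of all genes, again Nuak2 higher and Mark2 (-0.36) and Mark3 lower, and 5 with the replicate block, which added Nuak1 as higher (edgeR FDR = 0.0053) and Mark4 as lower (edgeR FDR = 0.0028). Over all genes the block raised the calls from 5755 to 8163 of 17522. Nuak2 was at 14.9, 16.99 and 11.98 CPM in A1 and at 6.66, 8.39 and 7.17 CPM in A2, beside 4.99 to 5.61 CPM in Lkb1-/- MEFs. Neither clone overlapped with Lkb1-/- MEFs, at 1.47 ± 0.13 SE in A1 (edgeR FDR = 3.6e-08) and 0.49 ± 0.13 SE in A2 (edgeR FDR = 0.0067). Nuak1 in A1, at 0.54 ± 0.16 SE (edgeR FDR = 0.012), was not called without replicate 1 of IL-1β-treated Lkb1-/- MEFs or replicate 2 of IL-1β-treated A1 (edgeR FDR = 0.056 to 0.076). In A2 it was at 0.29 ± 0.16 SE (edgeR FDR = 0.19), and was called without replicate 1 of IL-1β-treated A2 (edgeR FDR = 0.027). Mark3 in A2, at -0.19 ± 0.04 SE (edgeR FDR = 0.0018), lost its call when low counts were not filtered (edgeR FDR = 0.082) or in a fit of the 2 groups alone (edgeR FDR = 0.053).

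Against WT MEFs, each clone kept Brsk1 and Mark1 higher and Mark2 and Nuak1 lower, and Nuak2 was lower in A2. In untreated A1 4 of 7 genes were called, beside 55.4% of all genes, and Nuak2 was not among them (log2 fold change 0.14 ± 0.12 SE, edgeR FDR = 0.36, overlapping groups). In untreated A2 6 were called, beside 60.6% of all genes, with Nuak2 at -0.88 ± 0.13 SE (edgeR FDR = 3.6e-06) and Mark3 at -0.57 ± 0.04 SE (edgeR FDR = 2.5e-10). Brsk1 was 2.97-fold higher in A1 and 2.84-fold higher in A2, and Mark1, against the floor of 3 counts per WT library, at least 23.2-fold and 18.0-fold higher. Nuak1 was at -0.70 ± 0.16 SE in A1 (edgeR FDR = 0.00074) and -1.11 ± 0.16 SE in A2 (edgeR FDR = 3.4e-06). The other genes within 0.5 Mb of Nuak1 had a median of -0.01 in A1 and 0.12 in A2 against untreated WT, and their part in its level was not tested. Mark2 was at -0.94 ± 0.07 SE in A1 and -0.66 ± 0.07 SE in A2 (edgeR FDR = 9.3e-11 and 1.8e-08). Mark3 in A1, at -0.08 ± 0.04 SE (edgeR FDR = 0.13), was called lower with unstranded counts (edgeR FDR = 0.029), with DESeq2 (adjusted p = 0.031) and without replicate 3 of untreated WT (edgeR FDR = 0.034). Mark4 in A1, at -0.20 ± 0.12 SE (edgeR FDR = 0.17), was called lower with the replicate block (edgeR FDR = 0.0039).

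After IL-1β all 7 genes were called in A1 against WT, beside 56.9% of all genes, and 4 under upper quartile scaling, beside 10161 of 17522 genes. Nuak2 was then lower, at -0.40 ± 0.13 SE (edgeR FDR = 0.0098, and 0.065 without replicate 3 of IL-1β-treated A1), as were Mark3, at -0.13 ± 0.04 SE, and Mark4, at -0.31 ± 0.12 SE. Mark2 was at -0.99, Nuak1 at -0.58 and Brsk1 at 1.47 on the log2 scale. The call of Mark3 was lost without replicate 1 of IL-1β-treated A1 or replicate 2 of IL-1β-treated WT (edgeR FDR = 0.052 to 0.075) and without the filter (edgeR FDR = 0.45), and that of Mark4 without replicate 1 of IL-1β-treated A1 or replicate 3 of IL-1β-treated WT (edgeR FDR = 0.10 to 0.12). Upper quartile scaling, which moved the median of all genes by 0.11 here and by 0.10 in the comparison of Lkb1-/- with WT MEFs after IL-1β, ended the calls of Mark3 (edgeR FDR = 0.77), Mark4 (edgeR FDR = 0.064) and Nuak2 (edgeR FDR = 0.053). In A2 6 genes were called, beside 60.8% of all genes, with Nuak2 at -1.38 ± 0.13 SE and Brsk1 at 1.39 ± 0.10 SE (edgeR FDR = 7.2e-09 and 5.4e-11). Mark2 was at -0.64, Mark3 at -0.60 and Nuak1 at -0.83 on the same scale. Mark1 had 130 counts in A1 and 158 in A2 against the 1 count in WT, ratios of 128 and 145 with exact 95% intervals of 22.5 to 5080 and 25.6 to 5751.

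Between the clones, 3 of 7 genes were called in untreated A2 against A1, beside 32.5% of all genes, with Mark2 higher (0.28 ± 0.07 SE, edgeR FDR = 0.0021) and Mark3 and Nuak2 lower. Nuak1, at -0.42 ± 0.16 SE, was just outside the threshold (edgeR FDR = 0.051). It was called with DESeq2 (adjusted p = 0.037), with the replicate block (edgeR FDR = 9.7e-05), with upper quartile scaling (edgeR FDR = 0.018), without the filter (edgeR FDR = 0.0021) and without replicate 1 of untreated A1 or replicate 2 or 3 of untreated A2 (edgeR FDR = 0.036 to 0.044). After IL-1β 3 genes were called, beside 30.7% of all genes, with Mark2 higher (0.35 ± 0.07 SE, edgeR FDR = 0.00032) and Mark3 (-0.47 ± 0.04 SE, edgeR FDR = 6.5e-08) and Nuak2 (-0.98 ± 0.13 SE, edgeR FDR = 6.5e-06) lower. With the replicate block 5 were called, with Mark4 higher (edgeR FDR = 0.0017) and Nuak1 lower (edgeR FDR = 0.011) in addition. Over all genes the block raised the calls from 5374 to 7787 of 17522.

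IL-1β lowered Nuak2 in each of the 3 lines without LKB1. In the main fit, without the replicate block, Nuak2 was the only one of the 7 genes called in Lkb1-/- MEFs, in A1 and in A2. This stood beside 4.74%, 1.99% and 5.68% of all genes. With the block, Mark3 was called too in Lkb1-/- MEFs and Nuak1 in A1, as given below. In Lkb1-/- MEFs Nuak2 went from 7.83, 7.52 and 7.21 CPM to 5.61, 4.99 and 5.23 CPM (log2 fold change -0.51 ± 0.13 SE, edgeR FDR = 0.026). The groups did not overlap, but the call was lost when any of replicates 1, 2 and 3 of untreated or replicates 2 and 3 of treated Lkb1-/- MEFs was left out (edgeR FDR = 0.055 to 0.12). In A1 it went from 22.6, 26.6 and 23.1 CPM to 14.9, 16.99 and 11.98 CPM (-0.72 ± 0.13 SE, edgeR FDR = 0.0019), and in A2 from 9.47, 13.5 and 12.7 CPM to 6.66, 8.39 and 7.17 CPM (-0.68 ± 0.13 SE, edgeR FDR = 0.0018). Neither clone's groups overlapped, and the call in A2 was lost in a fit of its 6 libraries alone (edgeR FDR = 0.11).

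In WT MEFs none of the 7 genes was called by edgeR without the replicate block, beside 2.26% of all genes, and none by DESeq2. At an unadjusted p under 0.05 stood 1 gene, Nuak1, beside 11.4% of all genes. Nuak2 went from 20.6, 23.6 and 21.5 CPM to 19.7, 19.6 and 18.7 CPM, without overlap (log2 fold change -0.18 ± 0.12 SE, edgeR FDR = 0.67). Nuak1 went from 29.6, 41.3 and 35.5 CPM to 23.3, 27.7 and 27.2 CPM, also without overlap (-0.44 ± 0.16 SE, edgeR FDR = 0.20, 0.00043 with the replicate block and 0.0024 with no filter on counts). With the replicate block Nuak1 was also called lower in A1 (-0.32, edgeR FDR = 0.0086) and Mark3 lower in Lkb1-/- MEFs (-0.11, edgeR FDR = 0.045). Mark2, Mark3, Mark4 and Brsk1 had log2 fold changes between -0.17 and 0.18 over the 4 lines. Mark1, at few counts, went from 1.29, 1.97 and 1.70 CPM to 1.15, 0.990 and 0.999 CPM in A1, without overlap, and was not called (-0.66 ± 0.31 SE, edgeR FDR = 0.45). At an unadjusted p under 0.05 Mark1 stood with Nuak2 in A1, where 10.7% of all genes passed that limit. Mark3 stood with Nuak2 in Lkb1-/- MEFs, where 14.7% of all genes did.

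The differences between the IL-1β responses of the lines were tested directly. Not 1 of the 7 kinase genes passed between Lkb1-/- and WT MEFs (0.245% of all genes), between A1 and Lkb1-/- MEFs (0.0285%) or between A2 and Lkb1-/- MEFs (0% of all genes), by edgeR or by DESeq2. At an unadjusted p under 0.05 there were 0 of the 7, beside 5.62%, 2.47% and 2.21% of all genes in the same order. For Nuak2 the response of Lkb1-/- MEFs differed from that of WT by -0.33 on the log2 scale, with an interval of 2 SE from -0.70 to 0.03. The response of A1 differed from that of Lkb1-/- MEFs by -0.21 (-0.57 to 0.16) and that of A2 by -0.17 (-0.54 to 0.20). With the replicate block the 3 differences were -0.34 (edgeR FDR = 0.40), -0.21 and -0.17 (edgeR FDR = 1.0 for both). Taken by replicate number, the response of Lkb1-/- MEFs minus that of WT was -0.42, -0.32 and -0.26, that of A1 minus Lkb1-/- MEFs -0.12, -0.05 and -0.49, and that of A2 minus Lkb1-/- MEFs -0.03, -0.10 and -0.37. The 9 values are not independent, because the same 3 responses of Lkb1-/- MEFs enter every one of them, and none of the 3 differences passed the test over all genes.

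**Figure D5:**
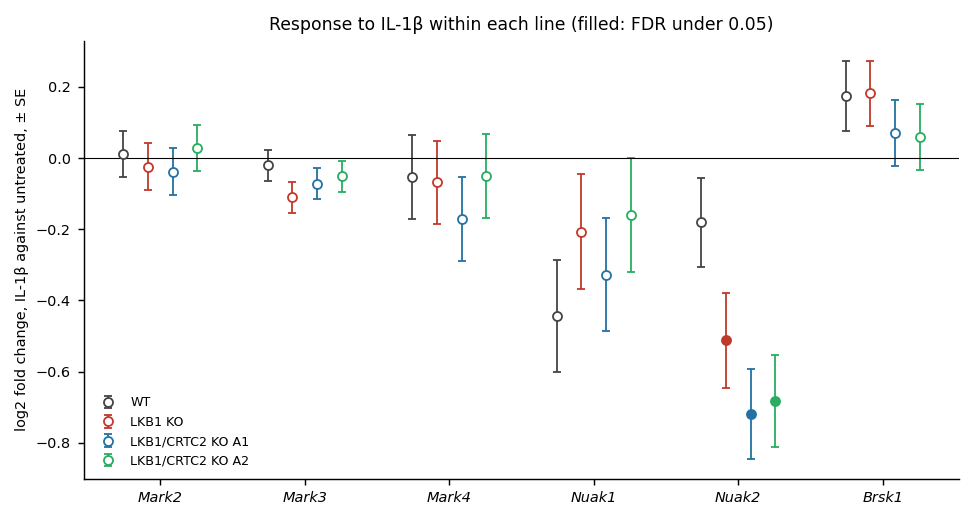
Points give the log2 fold change of 6 genes after IL-1β against untreated, with the SE, in each of the 4 lines, filled where the edgeR FDR was under 0.05. The Nuak2 points of the 3 lines without LKB1 are filled, at -0.51, -0.72 and -0.68, and the Nuak2 point of WT lies at -0.18.

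The other genes of the pathway were counted in the same fits, in which 55.9% of all genes were called between untreated Lkb1-/- and WT MEFs, 30.1% higher and 25.8% lower. Of the other 6 kinases that LKB1 activates, 1 was higher and 4 were lower in untreated Lkb1-/- than in WT MEFs (median log2 fold change -0.36, all genes 0.04). Snrk, a kinase of the same branch of the kinome, fell from 37.1 ± 3.57 to 14.5 ± 1.19 CPM (SD, n = 3; log2 fold change -1.35), and Sik1, which phosphorylates CRTC proteins, rose from 21.8 ± 1.76 to 45.3 ± 1.14 CPM (1.05). Against Lkb1-/- MEFs Sik1 was lower in A1 (-0.89) and A2 (-0.64), whereas Snrk, at 16.1 ± 2.10 and 15.7 ± 3.55 CPM, was not called in either clone. After IL-1β the median log2 fold change of the 6 lay between -0.07 and -0.01 over the 4 lines.

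All 5 genes of the LKB1 complex were called lower in untreated Lkb1-/- against WT MEFs (median log2 fold change -0.40), and 4 of the 5 after IL-1β, without Stradb. Among them were Stk11 (-2.31), the gene deleted by design, and Cab39l (-0.87), one of the scaffold genes of the complex, which fell from 74.9 ± 3.74 to 40.9 ± 0.665 CPM. Of 13 upstream regulators and partners, 4 were higher and 3 lower (median -0.03), close to the 55.9% over all genes. Prkcz, an atypical protein kinase C that phosphorylates MARK kinases, was at 0.0223 to 0.0261 CPM in untreated WT and at 2.01 to 2.07 CPM in untreated Lkb1-/- MEFs. These WT values lay below the 0.0604 to 0.0782 CPM of 3 counts, and Prkcz passed the filter on low counts only through the groups without LKB1. Its paralog Prkci fell from 298.3 ± 5.36 to 228.1 ± 5.57 CPM (-0.39). The 14-3-3 gene Ywhah was at -0.46, and Usp9x, a deubiquitinase, rose from 475.0 ± 14.9 to 602.6 ± 12.2 CPM (0.34) and was lower than that in both clones (-0.34 and -0.37).

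Of 14 substrate genes 12 were tested, and 3 were higher and 3 lower in untreated Lkb1-/- than in WT MEFs (median -0.06), again close to the 55.9% over all genes. Ksr1, a scaffold of the MAP kinase cascade, was at 11.1 ± 0.957 CPM in WT and 102.9 ± 16.8 CPM in Lkb1-/- MEFs (3.22), and Kif13b, a kinesin, at 22.2 ± 2.84 and 61.1 ± 4.05 CPM (1.46). Cdc25b, a cell cycle phosphatase, rose by 0.55. Ppp1r12a, the myosin phosphatase subunit on which NUAK kinases act, fell from 223.2 ± 1.78 to 146.6 ± 5.70 CPM (-0.61) and was at 202.4 ± 14.5 CPM in A1, where it was called higher than in Lkb1-/- MEFs (0.47), and at 165.8 ± 15.7 CPM in A2, where it was not called (0.18). Ppp1r12a lies on chromosome 10, whose genes had a median of -0.44 between untreated Lkb1-/- and WT MEFs and of 0.39 between A1 and Lkb1-/- MEFs, and the part of that shift was not tested. After IL-1β Hdac7, a histone deacetylase, was called lower in Lkb1-/- MEFs (-0.23), A1 (-0.33) and A2 (-0.29), and Cdc25c, a cell cycle phosphatase, in A2 (-0.29). In WT Hdac7 went from 116.0 ± 5.05 to 103.5 ± 5.33 CPM (SD, n = 3), without overlap, and was not called (-0.16, edgeR FDR = 0.26). The differences between the responses of the lines did not pass for Hdac7 or Cdc25c (edgeR FDR = 1.0 for each).

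As a description of pattern, the genes most like Nuak2 over the 8 group means of log2 CPM were Mprip (Pearson r = 0.992), Hmmr (0.986) and Rsu1 (0.981) among 9365 genes with a mean log2 CPM above 3. The gene most like Brsk1 was Gon4l (0.998). The 8 means come from the same 24 libraries, and no test was made on these values.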

How the data were processed

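Total RNA of 24 MEF cultures was sequenced as paired reads, and the authors trimmed them with Trim Galore 0.6.0, aligned them with STAR 2.7.8a to GRCm38 (mm10 in the submitters' notes) with GENCODE annotation, and deposited, per gene, counts of read pairs without normalization, in 1 unstranded and 2 stranded columns. The methods name a kit with ribosomal depletion and the labels another kit, so the kit is not settled. The counts of the second strand were used, which held 95.5% to 96.0% of stranded pairs; the 4 lines that name no gene (26.7% to 34.4% of pairs) were left out. Symbols, positions and exon lengths came from GENCODE M21.

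Genes were filtered with filterByExpr (minimum count 10, minimum total 15), which left 17522, and scaled with TMM in edgeR 4.0.16 (R 4.3.3). The quasi-likelihood test took all 24 libraries in 1 model with a coefficient for each group, as in the study's methods, and 19 contrasts were tested with Benjamini-Hochberg adjustment over all genes (FDR under 0.05). The common biological coefficient of variation was 0.129. The fit was tested on simulated data. Levels are TMM-scaled CPM, and RPKM over union exon length. No 2 of the 276 library pairs had identical counts.

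The members and gene lists were chosen with earlier results of these data known. Values of all 8 members were computed in every comparison, Brsk2 as counts only, and each value called is given in the text, as a fold, a log2 fold change or, for Mark1 against WT, a bound or a ratio, with up to 4 examples from each list in a comparison. For Nuak2 and Brsk1, which have the widest range of group mean log2 CPM among members with a mean log2 CPM above 3, up to 3 genes with the most similar pattern are named; some items are not reported here. Pairing of libraries by replicate number was checked, before block results were read, by correlating deviations from group means. Over 9369 genes with a mean log2 CPM above 3, all 84 correlations of same-numbered libraries were over 0.1 (0.238 to 0.819, median 0.561), and over all 17522 genes 69 of 84 (0.0355 to 0.589, median 0.222). The numbers were treated as pairing the libraries, although the labels give no day or batch. The fit without the block stayed the main one. Alternatives were unstranded counts, DESeq2 size factors, upper quartile scaling, no filter, the replicate block, DESeq2 1.42.0, a fit of the compared groups alone, and 1 library left out at a time.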

Additional observations from a re-analysis of the deposited data

Results flagged for a closer look

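Brsk2 had more read pairs under the opposite strand setting, which no comparison used, than under the one used. These opposite-strand counts were 21, 26 and 41 in untreated A2 (mean 29.3), above the highest of the 6 WT libraries at 26 in the mean but not in every library. In the other groups they were 8 to 20 in untreated and 14 to 26 in IL-1β-treated WT, 8 to 25 in Lkb1-/- MEFs, 6 to 19 in A1 and 17 to 29 in IL-1β-treated A2. The difference between the groups was not tested.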

How the results depend on the processing

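Over all alternatives, 1730 of the recomputed log2 fold changes of single genes kept their direction and side of the threshold, 27 gained a call and 27 lost one, and 70 that were not called either way changed sign; no called value reversed. Of the 27 gained calls 13 came from the replicate block and 6 from leaving out 1 library, and of the 27 lost calls 19 came from leaving out 1 library; the cause was not tested beyond that. The replicate block raised the count of called genes to 5 for A2 against Lkb1-/- MEFs untreated and after IL-1β, to 5 for A2 against A1 after IL-1β, to 1 for IL-1β in WT, and to 2 for IL-1β in Lkb1-/- MEFs and in A1, and the calls it changed without moving a count that far were those of Mark4 against WT (Lkb1-/- MEFs under both treatments, untreated A1) and of Nuak1 in untreated A2 against A1; it changed no other call. The calls over all genes rose with the block as well, as given above for the comparisons of A2 with Lkb1-/- MEFs and with A1. Upper quartile scaling gave 4 called genes for A1 against WT after IL-1β, no filter gave 1 for IL-1β in WT, and a fit of the groups compared gave 0 for IL-1β in A2. Leaving out 1 library gave 0 to 1 called genes for IL-1β in Lkb1-/- MEFs. The number of all genes called for IL-1β, 396 in WT, 831 in Lkb1-/- MEFs, 348 in A1 and 995 in A2, was 1629, 2601, 1684 and 3133 with the replicate block and 954, 1428, 908 and 1643 without the filter on low counts; DESeq2 called 624 in WT and 546 in A1, and a fit of the groups compared 246 in A2. Leaving out 1 library gave 203 to 412 in WT (203 without untreated replicate 2), 544 to 763 in Lkb1-/- MEFs (544 without untreated replicate 2), 197 to 233 in A1 (197 to 227 when the library left out was not untreated replicate 1) and 679 to 1890 in A2 (1890 without untreated replicate 1). For the differences of responses (43, 5 and 0 genes in the order given) it was 311, 36 and 18 with the block, 347, 141 and 68 without the filter, 111, 11 and 9 by DESeq2 and 76, 3 and 1 under upper quartile scaling, while unstranded counts gave 3 in place of 5 and the compared groups alone 70 in place of 43. Leaving out 1 library gave 23 to 57, 0 to 4 and 0 to 1 for these differences, with 23 without untreated Lkb1-/- replicate 2 or 3, 25 without treated Lkb1-/- replicate 3 and 28 without treated WT replicate 2 for the first, at most 3 for the second unless the library left out was replicate 3 of A1, and 1 for the third without either replicate 1 of A2. The share of higher calls among all genes called for IL-1β, 67.7% in WT, 55.8% in Lkb1-/- MEFs, 60.3% in A1 and 49.5% in A2, moved by over 10 percentage points with the replicate block in WT (50.6%), Lkb1-/- MEFs (38.9%) and A1 (38.2%), so that most calls were then lower in the last 2; without the filter in WT (53.6%) and A1 (48.1%); by DESeq2 (53.7%) and upper quartile scaling (57.4%) in WT; and in a fit of the groups compared in A2 (73.2%). With 1 library left out it was 59.2% to 84.1%, 52.2% to 69.7%, 60.9% to 74.9% and 40.1% to 63.1% in the same order. Shares of the summed RPKM moved by more than 1 SD in 37 of 64 cases with unstranded counts, by at most 6.98 percentage points (Brsk1). Mark1 and Brsk2 are limited by depth, with at most 82 and 3 counts in a library.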
